A study of Mus musculus with 6 samples.

Results

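The miR-191 and miR-425 cluster is a pair of microRNA (miRNA) hairpins that lie next to each other on mouse chromosome 9 and are usually described as hosted by Dalrd3, a gene for a tRNA-binding protein. Its 2 guide strands, miR-191-5p and miR-425-5p, were followed here as the 2 rows of that name among the 1927 mature miRNAs of a count table from bone extracellular vesicles (EVs), small particles bounded by membrane and shed by cells. They were chosen by their own counts in these same libraries, where both had been seen to be higher in large than in small vesicles. Their levels in the 2 fractions, and the ratio between them, are therefore given as a description, without a p-value.

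The vesicles came from the tibias and femurs of untreated male Swiss-CD1 mice aged 8 weeks. The bones were freed of marrow by a short spin and crushed, and the fluid was cleared of debris and cells at 700 g and 2000 g. Large EVs (lEVs) were pelleted at 10000 g, while small EVs (sEVs) needed 100000 g and a cushion of 30% sucrose. Each fraction had 3 libraries, and the labels do not say whether these came from separate animals, pools or preparations. Every SD below thus measures the spread between these libraries, which may be technical. A fitted SE or p-value combines counting error with a spread between libraries that the fit moderates over all tested miRNAs. Errors named as counting errors do not measure the spread between libraries. Size, spin and cushion differ together between the fractions and cannot be told apart. Nor can more vesicles that carry a miRNA be told from more copies of it per vesicle.

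A miRNA guide strand is loaded into an Argonaute protein and pairs with target messenger RNAs mainly through its seed, bases 2 to 8, which leads to their repression or decay. The other arm of the hairpin, the passenger strand, is mostly degraded. miR-191-5p is among the more abundant miRNAs of many cell types, blood cells and platelets among them, and both guides are in common use as reference miRNAs for scaling measurements in blood, largely in human samples.

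The 4 mature strands of the cluster are shown 5′ to 3′ with the seed in capitals, because the neighbouring hairpins carry different seeds (RefSeq sequences, GRCm38.p6, plus strand).
miR-191-5p: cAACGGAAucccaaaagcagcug
miR-191-3p: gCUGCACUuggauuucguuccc
miR-425-5p: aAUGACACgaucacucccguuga
miR-425-3p: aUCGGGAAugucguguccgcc

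The 4 seeds all differ from each other. The guides have 23 bases each and are identical at 5 of these positions when aligned from the 5′ end. No other mature miRNA of the 1679 in the RefSeq table has the seed of miR-191-5p, and 1, miR-489-3p, has that of miR-425-5p. miR-489-3p is listed at 0 in all libraries. In base composition, 52.2% of miR-191-5p and 47.8% of miR-425-5p is G or C, against a median of 45.5% over the 127 tested miRNAs with a sequence in that table. Neither guide and neither passenger holds GGAG or CCCU, 4-base motifs reported for miRNAs of small vesicles in human T cells. Read on the mature strand only, GGAG occurs in 14.2% and CCCU in 11.4% of the 1679 mature sequences, and each in 7.87% of the 127 tested ones, so a strand without them is the usual case.

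The 2 hairpins, with the guide in capitals, show that both guides come from the 5′ arm.
Mir191: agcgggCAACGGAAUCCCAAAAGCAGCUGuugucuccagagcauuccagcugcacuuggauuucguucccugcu
Mir425: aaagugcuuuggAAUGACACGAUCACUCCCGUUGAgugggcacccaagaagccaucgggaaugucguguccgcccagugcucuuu

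Mir191 has 74 bases at chr9:108568319-108568392 and Mir425 has 85 bases at chr9:108568777-108568861 (GRCm38, plus strand), with 384 bases between them. The 2 annotations of this build place them differently. In RefSeq the span of Dalrd3, chr9:108567484-108572773, contains both hairpins. In GENCODE M21 Dalrd3 starts 1024 bases downstream of Mir425, at position 108569886, and the hairpins lie in the noncoding gene 4833445I07Rik, chr9:108567533-108569174, of which 1 transcript, a single exon, covers both of them. Mir191 is also overlapped on the minus strand by Gm24083, an annotated miRNA gene at chr9:108568295-108568414. Whether reads were counted by strand is not given in the sources used here, so reads of the 2 strands at Mir191 may have been counted together.

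**Figure D1:**
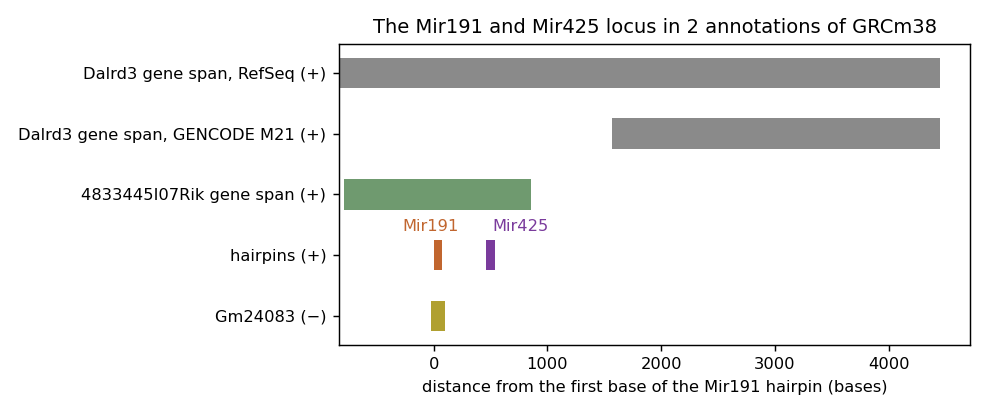
Map of the Mir191 and Mir425 locus in bases from the first base of the Mir191 hairpin, with the strand of each feature in parentheses; bars span whole genes or hairpins, and exons are not drawn. Both hairpins lie inside the RefSeq span of Dalrd3 and outside its GENCODE span, which starts 1024 bases after Mir425.

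The libraries held between 47441 and 114331 counts. The library of lEVs replicate 1, the smallest, stood apart from the other lEVs libraries: the chi-square statistic over its degrees of freedom was 20.1 and 15.7 against lEVs replicates 2 and 3, which differed from each other by 2.06. Its TMM factor, which corrects a library's size for its composition, was 0.853, against 1.18 and 1.12. No single miRNA marks bone cells alone, so the tissue label could be checked only in part. The mesenchymal miRNAs miR-199a-3p, miR-214-3p and miR-143-3p together held between 10.7% and 13.2% of every library, while miR-122-5p of liver and miR-124-3p of neurons were listed at 0 in all of them. The other neural miRNA looked for, miR-9-5p, was not at 0 throughout. It held at most 0.00462% of any lEVs library and between 0.00262% and 0.00503% of the sEVs libraries. Most of the mesenchymal share was that of miR-199a-3p, counted in 1 row with miR-199b-3p and also abundant in platelets. Markers of blood and vessel cells were present too. The myeloid miRNAs miR-223-3p and miR-142a-3p together held between 3.65% and 4.90% of every library, and the endothelial miR-126a-3p between 6.01% and 7.75%.

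The counts of miR-191-5p were 622, 1420 and 1377 in replicates 1, 2 and 3 of the lEVs, against 416, 430 and 661 in replicates 1, 2 and 3 of the sEVs. As shares of library totals these were 1.31% (exact Clopper-Pearson 95% interval 1.21% to 1.42%), 1.54% (1.46% to 1.62%) and 1.59% (1.51% to 1.67%) in lEVs. In sEVs the shares were 0.551% (0.500% to 0.607%), 0.433% (0.393% to 0.476%) and 0.578% (0.535% to 0.624%). The 3 lEVs libraries were all above the 3 sEVs libraries, and the lowest lEVs share was 2.27 times the highest sEVs share. Such intervals cover counting error only, since amplified reads need not be independent molecules.

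Levels between libraries were compared in CPM, which divides each count by its library's total after correction by the TMM factor. On this scale miR-191-5p stood at 15369, 13037 and 14222 in the lEVs libraries, and at 5741, 4546 and 5934 in those of sEVs. The order of the lEVs libraries thus depended on the scaling: replicate 1 was the lowest of them as a share and the highest in CPM. The lEVs mean was 14209 ± 1166 CPM and the sEVs mean 5407 ± 752 CPM (SD, n = 3 each), a log2 fold change of -1.39 (SE 0.15) for sEVs relative to lEVs, or a level 2.63-fold higher in lEVs. Counting error alone would give this fold change an SE of 0.04, so most of its error was spread between libraries.

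miR-425-5p is the rarer guide, with 23, 65 and 58 counts in the lEVs libraries against 26, 34 and 39 in those of sEVs. Its shares in lEVs were 0.0485% (exact interval 0.0307% to 0.0727%), 0.0703% (0.0542% to 0.0896%) and 0.0669% (0.0508% to 0.0865%). The shares in sEVs were 0.0344% (0.0225% to 0.0505%), 0.0342% (0.0237% to 0.0478%) and 0.0341% (0.0243% to 0.0466%). The fractions did not overlap, but the interval of lEVs replicate 1 overlapped those of all sEVs libraries, which the intervals of lEVs replicates 2 and 3 did not.

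On the CPM scale miR-425-5p stood at 568, 597 and 599 in the lEVs libraries, and at 359, 359 and 350 in those of sEVs. The means were 588 ± 17.1 and 356 ± 5.20 CPM (SD, n = 3 each), and the log2 fold change was -0.73 (SE 0.16), a level 1.66-fold higher in lEVs. The replicates lay closer together than counting allows for on average: their coefficient of variation was 2.91% in lEVs and 1.46% in sEVs, where Poisson counting at these counts gives 14.3% and 17.4%. Such an SD understates the error of miR-425-5p, and the counting SE of its log2 fold change was 0.19.

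**Figure D2:**
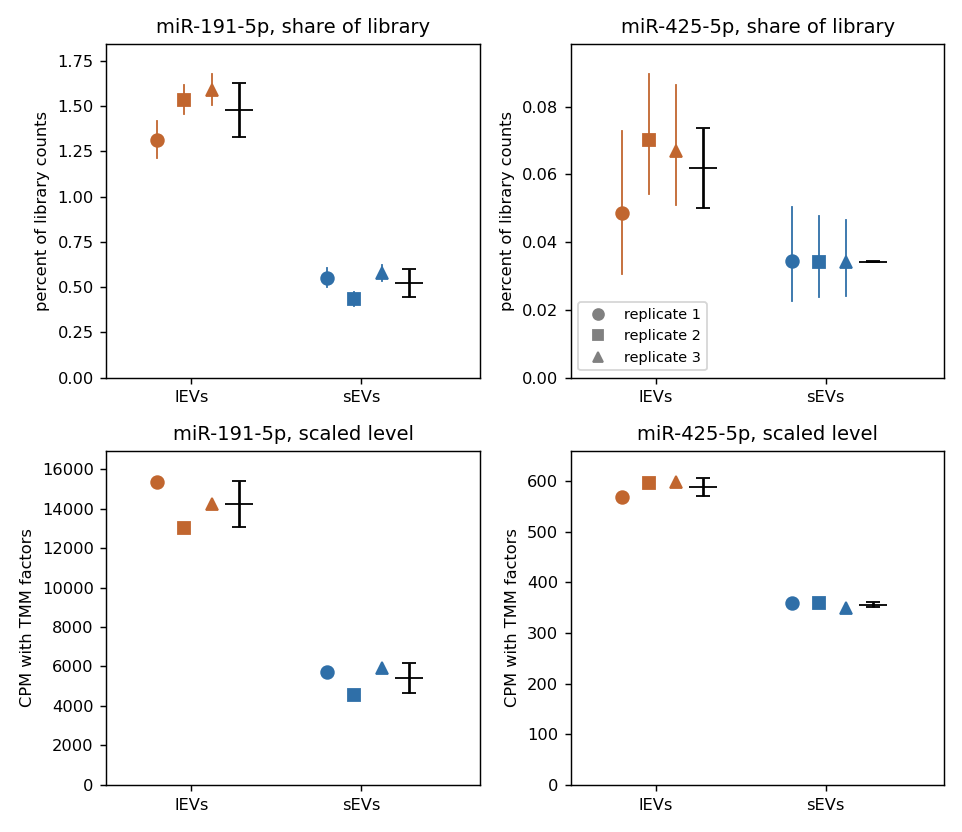
Share of library counts in percent (upper panels, thin lines are exact 95% intervals) and CPM with TMM factors (lower panels) of miR-191-5p and miR-425-5p in each of the 3 lEVs and 3 sEVs libraries; black bars are the mean ± SD, and symbols mark replicates. All lEVs points lie above all sEVs points in each panel, with means of 14209 and 5407 CPM for miR-191-5p and 588 and 356 CPM for miR-425-5p.

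In the fit over all tested miRNAs, 17.2% differed between the fractions (edgeR's quasi-likelihood test, adjusted p under 0.05): 8.97% of those tested were higher in lEVs and 8.28% were higher in sEVs. This split depended on the scaling and on single libraries: 24 were higher in lEVs and 11 in sEVs with library totals, against 13 and 12, while leaving out lEVs replicate 1 gave 23 and 29, and leaving out lEVs replicate 3 gave 8 and 8. Both guides were among those higher in lEVs, which is how they came to be chosen and adds nothing to their levels. Without lEVs replicate 2 or lEVs replicate 3, miR-425-5p was no longer among the miRNAs called, while its log2 fold change stayed between -0.76 and -0.74. Both had all lEVs libraries above all sEVs libraries in CPM, as had 22.1% of the tested miRNAs. By log2 fold change, miR-191-5p was the 7th lowest and miR-425-5p the 26th lowest of those tested.

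The abundance ranks of the guides differed between the fractions as well. Among tested miRNAs, miR-191-5p was the 16th most abundant in lEVs and the 29th in sEVs, and miR-425-5p was the 75th and the 86th. In mean CPM the neighbours of miR-191-5p in lEVs were miR-140-3p of cartilage (15008 ± 6073 CPM) and miR-1a-3p of skeletal muscle (12044 ± 2747 CPM), both within their spread of it. In sEVs they were miR-142a-5p, a miRNA of blood cells (5456 ± 257 CPM), and miR-152-3p (5373 ± 234 CPM), again within the spread. miR-425-5p stood between miR-532-5p (627 ± 47.9 CPM) and miR-30c-5p (564 ± 153 CPM) in lEVs and between miR-541-5p (357 ± 57.1 CPM) and miR-320-3p (354 ± 80.8 CPM) in sEVs (SD, n = 3 for each).

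The passenger strands were scarce. The counts of miR-191-3p were 0, 0 and 2 for the lEVs libraries, and 0, 5 and 0 for those of sEVs, so at 2 of 3421 counts of its hairpin in lEVs and 5 of 1512 in sEVs no fold change can be given. Those of miR-425-3p were 0, 4 and 10 for lEVs, and 0, 4 and 7 for sEVs. Summed over each fraction, it made up 8.75% of the counts of its hairpin in lEVs (14 of 160, exact interval 4.87% to 14.2%) and 10.0% in sEVs (11 of 110, 5.10% to 17.2%). These intervals overlap widely, and a change of arm use between the fractions was not detectable at this depth. Neither passenger strand passed the filter on low counts. The table holds 0 values of 1, so an entry of 0 could be 0 or 1 count, and zeros were given no upper limit.

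Both guides come from hairpins 384 bases apart, yet their counts differed by more than 10-fold in every library. The ratio of miR-191-5p to miR-425-5p counts within a library needs no scaling between libraries. It was 27.0 (exact 95% interval 17.9 to 43.0), 21.8 (17 to 28.5) and 23.7 (18.3 to 31.4) in lEVs replicates 1, 2 and 3. In sEVs replicates 1, 2 and 3 it was 16 (10.8 to 24.8), 12.6 (8.91 to 18.5) and 16.9 (12.3 to 24.1). All lEVs ratios were above all sEVs ratios, while the counting intervals overlapped in 9 of the 9 pairings of an lEVs with an sEVs library.

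The mean ratio was 24.2 ± 2.63 in lEVs and 15.2 ± 2.26 in sEVs (SD, n = 3 each). On the log2 scale it was 4.59 ± 0.16 and 3.91 ± 0.22, a difference of -0.68 (SE 0.16) for sEVs relative to lEVs, so that the pair was 1.60-fold more weighted to miR-191-5p in lEVs. From the summed counts, 3419 and 146 for lEVs against 1507 and 99 for sEVs, the difference was -0.62 with a counting SE of 0.19. Ligation and amplification differ between sequences, so the ratio is one of counts and need not be one of molecules.

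The same ratio was taken for other guides encoded near each other, to show how far such pairs differ in general. Of 18 pairs listed, 15 had counts above 0 in every library. Their log2 ratio differed between sEVs and lEVs by an absolute median of 0.69, with a range from 0.04 to 1.65. For 8 of the 15 the difference was larger than that of miR-191-5p and miR-425-5p, and for 7 of the 15 the fractions did not overlap. The difference within the pair of miR-191-5p and miR-425-5p thus lay near the middle of these.

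The largest was that of miR-143-3p and miR-145a-5p, the smooth muscle pair, at 1.65. The smallest was that of miR-29a-3p and miR-29b-3p, regulators of collagen messenger RNAs, at 0.04. miR-25-3p and miR-93-5p, whose hairpins lie within Mcm7, differed by -0.81, with log2 ratios of -0.04 ± 0.33 in lEVs and -0.85 ± 0.06 in sEVs (SD, n = 3 each). Some guides of these pairs, such as miR-16-5p and miR-125b-5p, are also made at another locus, and some had as few as 4 counts in a library.

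**Figure D3:**
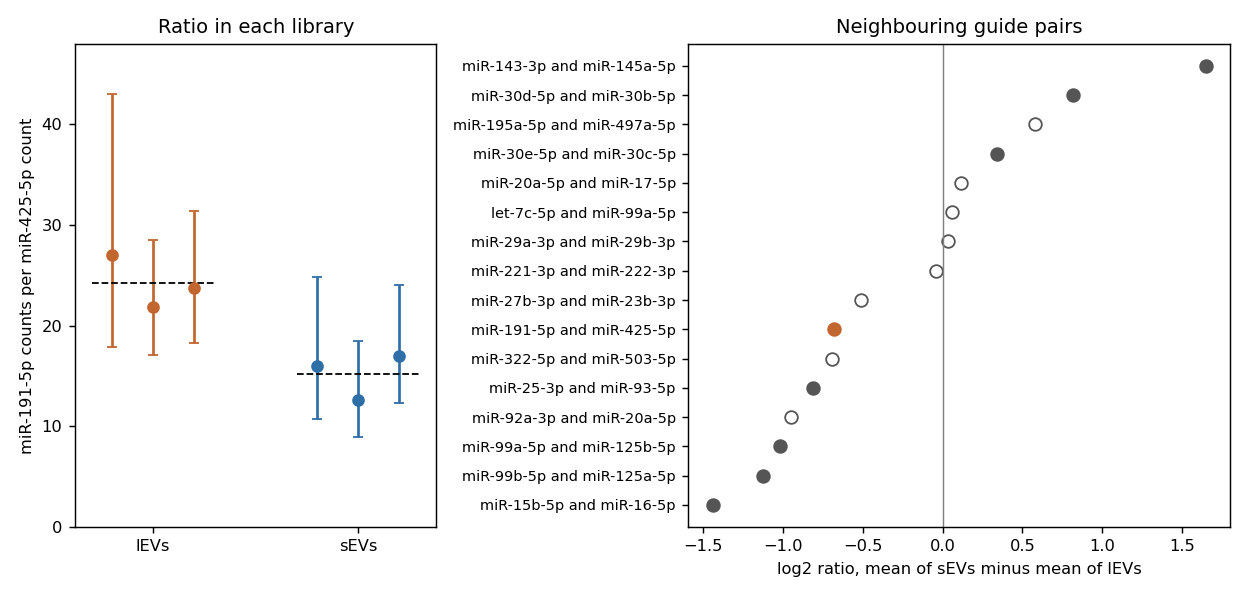
Left, counts of miR-191-5p per count of miR-425-5p in each library, with exact 95% intervals as bars and the mean of each fraction as a dashed line. Right, the log2 ratio within 16 neighbouring guide pairs as the mean of sEVs minus the mean of lEVs, orange for miR-191-5p and miR-425-5p (-0.68), filled where the libraries of the fractions do not overlap; the values run from -1.44 to 1.65.

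The tested miRNAs whose pattern over the 6 libraries was most like that of each guide were found by the root mean square difference between log2(CPM + 10) profiles, each centred on its own mean. All of them share the 6 libraries with the guides, and the difference between the fractions makes up most of each profile. The nearest miRNAs were thus picked for a like difference between the fractions. Their fall in sEVs and its adjusted p-values are given as description and add nothing to the levels of the guides. For miR-191-5p the nearest were miR-128-3p (0.15), miR-378a-3p/378b/378c, counted as 1 row (0.19), miR-15b-5p (0.21), miR-532-5p (0.25) and miR-29a-3p (0.26), where the median over tested miRNAs was 0.79. miR-425-5p came 10th, at 0.38.

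miR-128-3p, best known from neurons, stood at 1112, 1047 and 1095 CPM in the lEVs libraries, and at 455, 455 and 512 CPM in those of sEVs. The fractions did not overlap, and it fell in sEVs with a fold change of -1.18 on the log2 scale (SE 0.14; adjusted p of edgeR 0.00101). The log2 fold changes of the other 4 were between -1.55, for miR-15b-5p of the miR-15/16 seed family, and -0.97, for miR-532-5p, and all 4 fell in sEVs (edgeR adjusted p between 0.00191 and 0.0159). miR-532-5p did not pass without lEVs replicate 3 (adjusted p = 0.0805).

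For miR-425-5p the nearest profiles were those of miR-744-5p (0.16), miR-322-5p (0.16), miR-25-3p (0.18), miR-146b-5p (0.21) and miR-1839-5p (0.21), where the median was 0.49. miR-191-5p came only 40th in likeness. miR-744-5p stood at 717, 689 and 630 CPM in the lEVs libraries and at 511, 423 and 359 CPM in those of sEVs, and fell with a fold change of -0.66 on the log2 scale (edgeR adjusted p = 0.0469). miR-322-5p (-0.53, adjusted p of edgeR 0.0477) and miR-25-3p (-0.85, 0.00617) also fell. miR-322-5p and miR-744-5p lay close to the threshold: neither was called without lEVs replicate 2, lEVs replicate 3 or sEVs replicate 2 (edgeR adjusted p between 0.0930 and 0.134), nor with DESeq2 size factors (0.0569 and 0.0505). miR-744-5p was also lost without sEVs replicate 3 (0.0950) and in DESeq2 (0.0571), and miR-322-5p without sEVs replicate 1 (0.146), with library totals (0.0536) and with the replicate block (0.0599). The log2 fold changes of miR-146b-5p and miR-1839-5p, -0.56 and -0.74, did not pass (edgeR adjusted p = 0.0628 and 0.129).

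**Figure D4:**
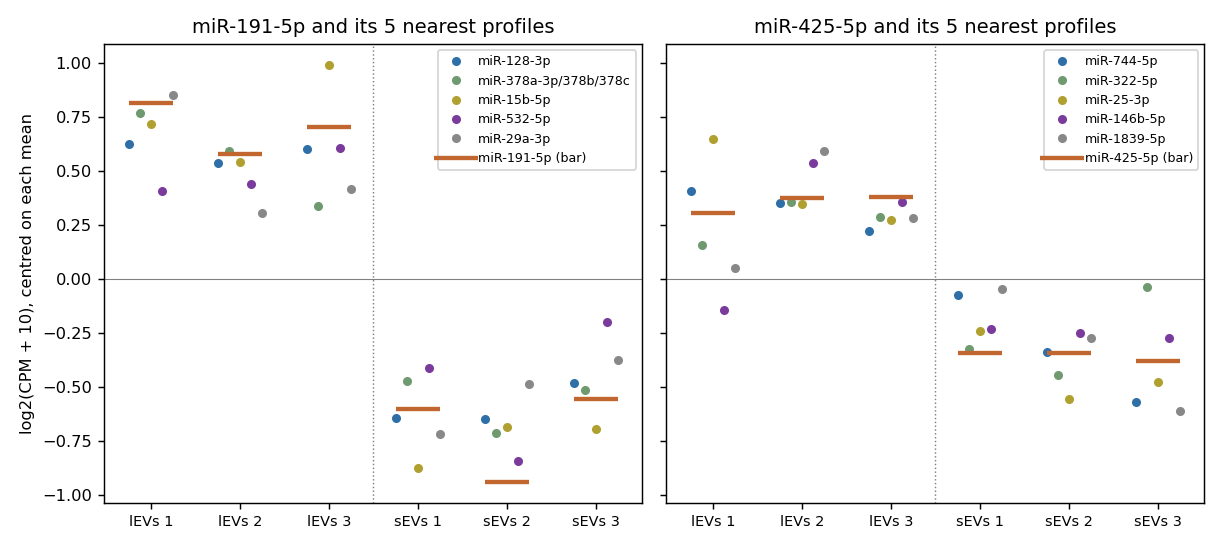
Log2(CPM + 10) in each library, centred on each miRNA's own mean, for miR-191-5p (left) and miR-425-5p (right) as orange bars and for the 5 miRNAs with the nearest profiles as points. Every lEVs bar lies above 0 and every sEVs bar below it, with a wider step for miR-191-5p (log2 fold change -1.39) than for miR-425-5p (-0.73).

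miR-191-5p and miR-425-5p are both used as reference miRNAs, so a list of 20 miRNAs in such use was set beside them. Of the other 17 tested, miR-23a-3p/23b-3p rose in sEVs, miR-25-3p fell and 15 did not pass. The called share was 11.8%, where it was 16.1% of the 143 tested miRNAs other than the guides, and the median log2 fold change was 0.12, where theirs was -0.03. miR-191-5p, at -1.39, had the lowest log2 fold change of the list, and miR-425-5p, at -0.73, was the fourth lowest, after miR-25-3p and let-7i-5p (-0.73 also; edgeR adjusted p = 0.0854). miR-25-3p, of the miR-106b-25 cluster, stood at 7511, 6105 and 5805 CPM in the lEVs libraries and at 4057, 3256 and 3447 CPM in those of sEVs. miR-23a-3p/23b-3p stood at 3459, 4049 and 4142 CPM and at 7590, 6893 and 6769 CPM in the same order (log2 fold change 0.86; edgeR adjusted p = 0.00263).

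Several reference miRNAs had small fold changes. miR-24-3p had a mean of 3695 CPM for lEVs and 3685 CPM for sEVs, a log2 fold change of -0.01 (SE 0.12), and miR-93-5p had 6642 and 6460 CPM (-0.04, SE 0.13). The most abundant reference miRNA, miR-16-5p of blood cells, had a log2 fold change of -0.14 (SE 0.19). That of let-7a-5p was 0.37 (SE 0.15). An adjusted p above the threshold does not show that these were equal. Without lEVs replicate 1, 9 of the 19 tested reference miRNAs, the guides included, passed, but so did 34.4% of all miRNAs tested in that setting. Among the 9 were let-7a-5p, miR-26a-5p and miR-30e-5p higher in sEVs and let-7i-5p and miR-103-3p/107-3p higher in lEVs. In DESeq2, 7 of the 19 passed, beside 24.1% of all tested miRNAs.

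**Figure D5:**
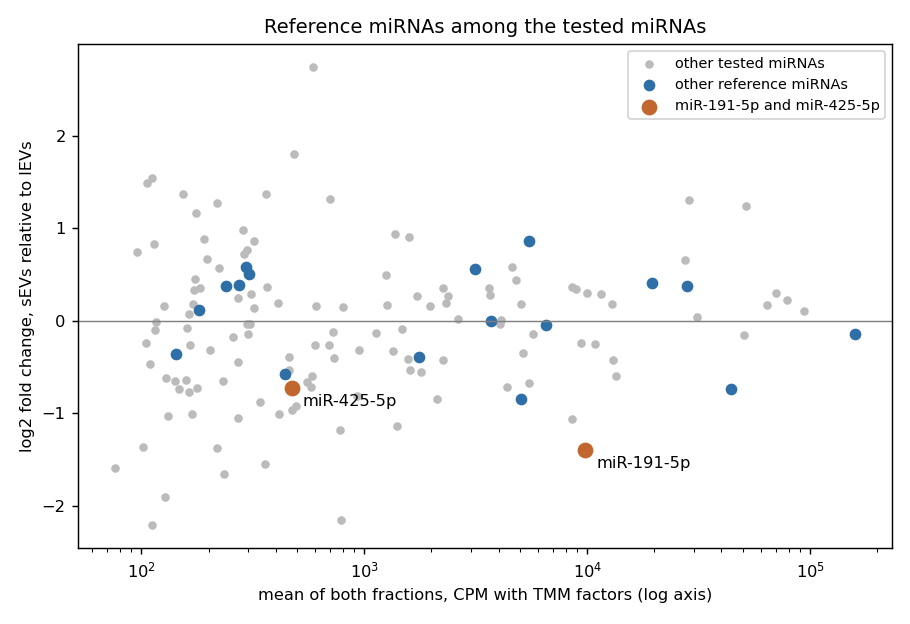
Log2 fold change of sEVs relative to lEVs against the mean CPM of both fractions (log axis) for the tested miRNAs, with the other reference miRNAs in blue and the guides in orange. miR-191-5p (-1.39) lies below all 17 other reference miRNAs, whose median is 0.12.

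Platelets carry much miR-191-5p, so 20 miRNAs abundant in platelets were listed as markers of another source. The list named miR-142-3p, which matched no row under that name. The mouse row miR-142a-3p (log2 fold change -0.25, edgeR adjusted p = 0.203) was thus left out of the values of the list. Of the 17 list members tested other than the guides, miR-22-3p rose in sEVs (log2 fold change 1.32), miR-25-3p fell and 15 did not pass. This was again a called share of 11.8% beside 16.1%, with a median log2 fold change of -0.01. Together these others held between 26.9% and 31.8% of the lEVs libraries and between 28.8% and 30.7% of the sEVs libraries, ranges that overlap. The most abundant of the list, miR-199a-3p/199b-3p, miR-126a-3p and let-7f-5p, had fold changes of 0.11, 0.30 and -0.16 on the log2 scale, which did not pass (adjusted p of edgeR between 0.126 and 0.602). miR-223-3p, the myeloid and platelet miRNA, had a log2 fold change of 0.04 (SE 0.11). None of the list is made by platelets alone, and miR-199a-3p and miR-126a-3p also serve here as mesenchymal and endothelial markers. The summed share of the list therefore cannot be read as that of platelets. Without lEVs replicate 1, 8 of the 19 tested members passed, the guides included, 4 in each direction, beside 34.4% of all miRNAs tested in that setting.

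Marker miRNAs of other cells were also set beside the guides. The lymphocyte miRNA miR-150-5p held between 0.0864% and 0.134% of the lEVs libraries and between 0.179% and 0.215% of the sEVs libraries, and rose in sEVs by 0.91 on the log2 scale (adjusted p of edgeR 0.00268). The endothelial miRNA miR-126a-3p held between 6.01% and 6.85% in lEVs and between 7.21% and 7.75% in sEVs, and did not pass (edgeR adjusted p = 0.126). The cartilage miRNA miR-140-3p held between 1.31% and 1.88% in lEVs and between 1.02% and 1.13% in sEVs, and did not pass either (log2 fold change -0.42; edgeR adjusted p = 0.253). The myeloid markers miR-223-3p and miR-142a-3p, the red cell markers miR-451a, miR-144-3p and miR-486a-5p/486b-5p, and the skeletal muscle markers miR-1a-3p, miR-133a-3p/133b-3p and miR-206-3p had summed shares that overlapped between the fractions. So had the mesenchymal markers, at 10.7% to 12.2% of the lEVs libraries and 11.5% to 13.2% of the sEVs libraries, although 1 of the 3, miR-143-3p, rose in sEVs (log2 fold change 0.65, adjusted p of edgeR 0.0231). That call was lost with library totals, and when lEVs replicate 3 or either of sEVs replicates 2 and 3 was left out (adjusted p between 0.102 and 0.125). The part of these cell types in the levels of the guides was not tested.

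The guides were finally set among miRNAs that lie on the sense strand within the RefSeq or GENCODE span of a protein-coding gene and outside its GENCODE exons. RefSeq exons were not used here, so for the guides this rests on the RefSeq span of Dalrd3. miR-25-3p and miR-93-5p did not meet the rule, since an exon of Mcm7 in GENCODE overlaps their hairpins. Hairpins were found for 120 of the tested rows, and 39 rows met this rule. Of the 37 other than the guides, miR-10b-5p of the Hoxd genes rose in sEVs (log2 fold change 0.94). The 5 that fell were miR-128-3p, miR-15b-5p of Smc4, miR-339-5p (-1.66), miR-574-5p of Fam114a1 (-1.38) and miR-744-5p of Map2k4, and 31 did not pass, so that 16.2% were called, near the 16.1% of all tested miRNAs other than the guides. miR-574-5p was lost when lEVs replicate 3 or either of sEVs replicates 1 and 3 was left out (edgeR adjusted p between 0.0629 and 0.0732). The most abundant rows beside miR-191-5p were miR-126a-3p and miR-26b-5p, each with a log2 fold change of 0.30. The median log2 fold change of the 37 was -0.01. Among the tested rows that did not meet the rule or had no hairpin, 11 rose, 6 fell and 89 did not pass. Their median log2 fold change was -0.04. Rows without a hairpin could not be judged by the rule. A difference in direction between these rows and those that met the rule was not tested. Rows were judged by the hairpins found, which were fewer than the joined names in some. The row miR-378a-3p/378b/378c, with 2 hairpins found and a log2 fold change of -1.14, was such a row and did not meet the rule. With GENCODE spans alone 36 rows met the rule, and the guides did not. Without lEVs replicate 1, 14 of the 39 passed (35.9%), 4 higher in sEVs and 10 higher in lEVs, beside 34.4% of all miRNAs tested. Without lEVs replicate 3, 5 of the 39 passed (12.8%), 1 and 4, beside 10.5% of all.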

How the data were processed

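Small RNA was sequenced from 3 lEVs and 3 sEVs libraries. Per the labels' protocols, Qiagen's QIAseq kit for miRNA and a MiSeq were used, with single reads (75 bases). The authors deposited raw counts per mature miRNA. The submitters' processing notes name GRCm38, DESeq2 1.38.2 and R 4.2.2. How reads were aligned and counted, by strand or by molecular identifier, is a point not given in the sources used here. Of 1927 rows, 35 join several miRNA names.

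Columns were matched to libraries by their labels. The test was edgeR's quasi-likelihood test (edgeR 4.0.16, R 4.3.3; TMM factors, filterByExpr with at least 10 counts and a total of 15), with Benjamini-Hochberg adjustment over the miRNAs kept. The script was tested on simulated data. The SE of a log2 fold change was its absolute value over the square root of F. Alternatives were DESeq2 1.42.0 on the same rows, DESeq2 size factors, library totals, no filter, the replicate number as a block and each library left out. Ratios used raw counts. Profiles used a pseudocount of 10 CPM. Intervals are exact Clopper-Pearson from scipy 1.17.1.

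The guides and all lists were chosen with earlier results of these data known. Named miRNAs were the guides, their passenger strands, the 5 nearest profiles and abundance neighbours of each guide, the called and the 3 most abundant members of the lists, the extreme pairs and the miRNAs sharing a seed; miR-24-3p, miR-93-5p miR-223-3p, the pair of miR-25-3p and miR-93-5p and the marker miRNAs were named after their values were seen. Sequences are from RefSeq (GRCm38.p6), gene spans from RefSeq and GENCODE M21, and exons from GENCODE M21.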

Additional observations from a re-analysis of the deposited data

How the results depend on the processing

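The log2 fold change of miR-191-5p moved by less than the SD between libraries under all 11 alternatives run, and that of miR-425-5p under 9 of 11. For miR-425-5p it was -0.88 with library totals and -0.77 without sEVs replicate 2, both further from 0 than the main value of -0.73, measured against an SD below its counting error. Leaving out each library in turn gave -1.51 to -1.32 for miR-191-5p, -0.77 to -0.70 for miR-425-5p and -0.76 to -0.55 for the log2 ratio between them. Library totals moved the median log2 fold change of all tested miRNAs from -0.04 to -0.18, and relative to that median the guides differed little from the main fit. With library totals 35 miRNAs were called, 11 higher in sEVs and 24 in lEVs, against 12 and 13. With low counts left in, 53 of 327 were called, and 14 of the 39 intronic miRNAs. The intronic list held only rows that had passed the filter, so these 14 of 39 and 53 of 327 are not like for like. Over the libraries left out, the count of all called miRNAs ranged from 16 (without lEVs replicate 3, 10.5% of those tested) to 52 (without lEVs replicate 1, 34.4%). That of the reference list went from 3 to 9, that of the platelet list from 3 to 8 and that of the intronic list from 5 to 14. DESeq2 called 7 reference miRNAs against 4, the guides included in both, beside 24.1% of all tested miRNAs against 17.2%. The 5 nearest profiles of each guide were the same 5 with library totals, an alternative chosen after seeing the data. With the replicate block, 26 miRNAs were called, the guides had log2 fold changes of -1.40 and -0.73, and their ratio difference was -0.68. Same-numbered libraries had correlations of -0.07, 0.07 and 0.37 between their deviations from the means of their fractions. Libraries of unlike number had correlations between -0.31 and 0.14. So few libraries do not settle whether the numbers pair them. At 23 to 65 counts per library, depth limits every value of miR-425-5p.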

Other observations

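The 13 miRNAs called higher in lEVs, both guides among them, were picked in these same libraries. Their larger share in lEVs thus follows from that choice. They took 3.99%, 4.49% and 4.43% of the counts of lEVs replicates 1, 2 and 3 and 1.83%, 1.67% and 1.97% of those of sEVs replicates 1, 2 and 3. Of these counts miR-191-5p made up 32.9%, 34.2% and 35.9% for lEVs, against 30.1%, 26.0% and 29.3% for sEVs. The part of miR-425-5p was 1.22%, 1.57% and 1.51% for the lEVs libraries, against 1.88%, 2.05% and 1.73% for those of sEVs.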
